A study of Mus musculus with 12 samples.

Results

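The tumour necrosis factor (TNF) superfamily was followed through 12 RNA-seq libraries of hyperplastic mouse mammary gland. Members were the protein-coding genes named Tnf, Lta, Ltb, Ltbr, Cd40, Cd40lg, Fas, Fasl, or Tnfsf or Tnfrsf with a number. This name rule found 39 of 54532 annotated genes, 22046 of them protein-coding. Of the 39 members, 16 encode ligands and 23 receptors. The receptors comprised 5 with a cytoplasmic death domain, 14 that bind TNF receptor-associated factors (TRAFs), 3 decoys and Tnfrsf26.

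All 12 libraries came from female FVB/N mice that carried the MIC system and received 2 mg/ml doxycycline in the drinking water, with titles that carry a tag of 2 wk. In MIC mice, doxycycline switches on polyomavirus middle T and Cre in mammary epithelium from 1 transcript, so the WT group is itself an oncogene-bearing, doxycycline-treated gland. The genotypes were MIC WT (here WT), MIC Stat3 ko (Stat3 ko) and MIC Chi3l1 ko (Chi3l1 ko), with 4 libraries each, numbered here in accession order. The labels do not say which cells lost Stat3 or Chi3l1, nor whether the 4 libraries of a group are separate animals, so p-values measure only the spread between these libraries.

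TNF superfamily ligands are mostly trimeric type II membrane proteins, and some are cut from the surface to act as soluble cytokines. Receptors with a death domain can assemble caspase-activating complexes, while TRAF-binding receptors signal mainly to NF-kB and MAP kinases, and decoy receptors bind ligand without a complete signalling tail. In the mammary gland RANK (Tnfrsf11a) and its ligand RANKL (Tnfsf11) are known for driving alveolar growth, and in lymphoid tissue lymphotoxins, CD40 and the BAFF receptors organise follicles and maintain B cells.

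Total counts per library ranged from 16217143 to 22607123. Stat3 averaged 48.0 ± 1.93 FPKM (length- and depth-scaled fragment counts, SD, n = 4) in WT and 15.8 ± 3.04 in Stat3 ko. It was 50.01 ± 2.67 FPKM in Chi3l1 ko. Chil1, the annotation's name for Chi3l1, had 3 counts in all over the 4 Chi3l1 ko libraries. Luminal epithelial markers were high in every library, with a mean log2(FPKM + 1) of 6.49 to 6.99 in WT, 5.35 to 6.49 in Stat3 ko, and 6.43 to 6.77 with Chi3l1 deleted. Stat3 ko 2 and Stat3 ko 3 stood apart from the other libraries. Their 14 B cell markers averaged 5.41 and 4.06 on the same scale, against 1.49 in Stat3 ko 1, 0.73 in Stat3 ko 4, 0.40 to 0.82 over the WT libraries and 0.50 to 0.64 over those of Chi3l1 ko. Their 6 lymph node stroma markers averaged 4.87 and 3.27, against at most 1.07 elsewhere. Stat3 ko 1 had the highest adipocyte marker level, 9.08 against 2.79 to 6.05 in the other libraries.

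Receptors were the abundant side of the family in WT glands. On the FPKM scale, which corrects for gene length and so allows levels of different genes to be compared, 6 receptors and 1 ligand had a WT mean above 10 FPKM. A further 17 members lay between 1 and 10 FPKM, and 15 were under 1 FPKM, of which 11 were ligands. The median WT level was 0.726 FPKM over the ligands and 3.18 FPKM over the receptors.

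The highest WT levels belonged to Tnfrsf1a, the widely expressed TNF receptor with a death domain, at 70.4 ± 5.95 FPKM, to Tnfrsf12a, the receptor of the ligand TWEAK, at 66.5 ± 9.72 FPKM, and to Tnfrsf21 (DR6), a death domain receptor, at 65.6 ± 13.8 FPKM. The spread of these 3 receptors overlapped, so they have no order among themselves. Ltbr, the receptor of membrane lymphotoxin, followed at 35.9 ± 2.18 FPKM. RANK at 14.5 ± 1.17 FPKM, Tnfrsf1b, the second TNF receptor, at 14.4 ± 2.23 FPKM, and Tnfsf10 (TRAIL), the only ligand in this range, at 14.2 ± 2.78 FPKM were again not separable by their spread. The next 2 members were Tnfrsf14 (HVEM) at 8.99 ± 3.10 FPKM and Ltb, the membrane anchor of lymphotoxin heterotrimers, at 7.84 ± 3.16 FPKM.

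Several members stood at the low end. Cd40lg, the CD40 ligand of helper T cells, had counts of 0, 1, 0 and 0 in the 4 WT libraries. Tnfrsf8 (CD30) averaged 0.0836 ± 0.0707 FPKM and Tnfsf4 (OX40L) 0.132 ± 0.101 FPKM. RANKL averaged 0.153 ± 0.122 FPKM, so the receptor RANK was present with little transcript of its ligand. Across 16 ligand and receptor pairs, the receptor exceeded the ligand in all 12 libraries for 11 pairs. The ligand exceeded the receptor in all 12 for TRAIL with Tnfrsf10b (DR5), its death receptor in the mouse, and for Tnfsf8 with Tnfrsf8.

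**Figure D1:**
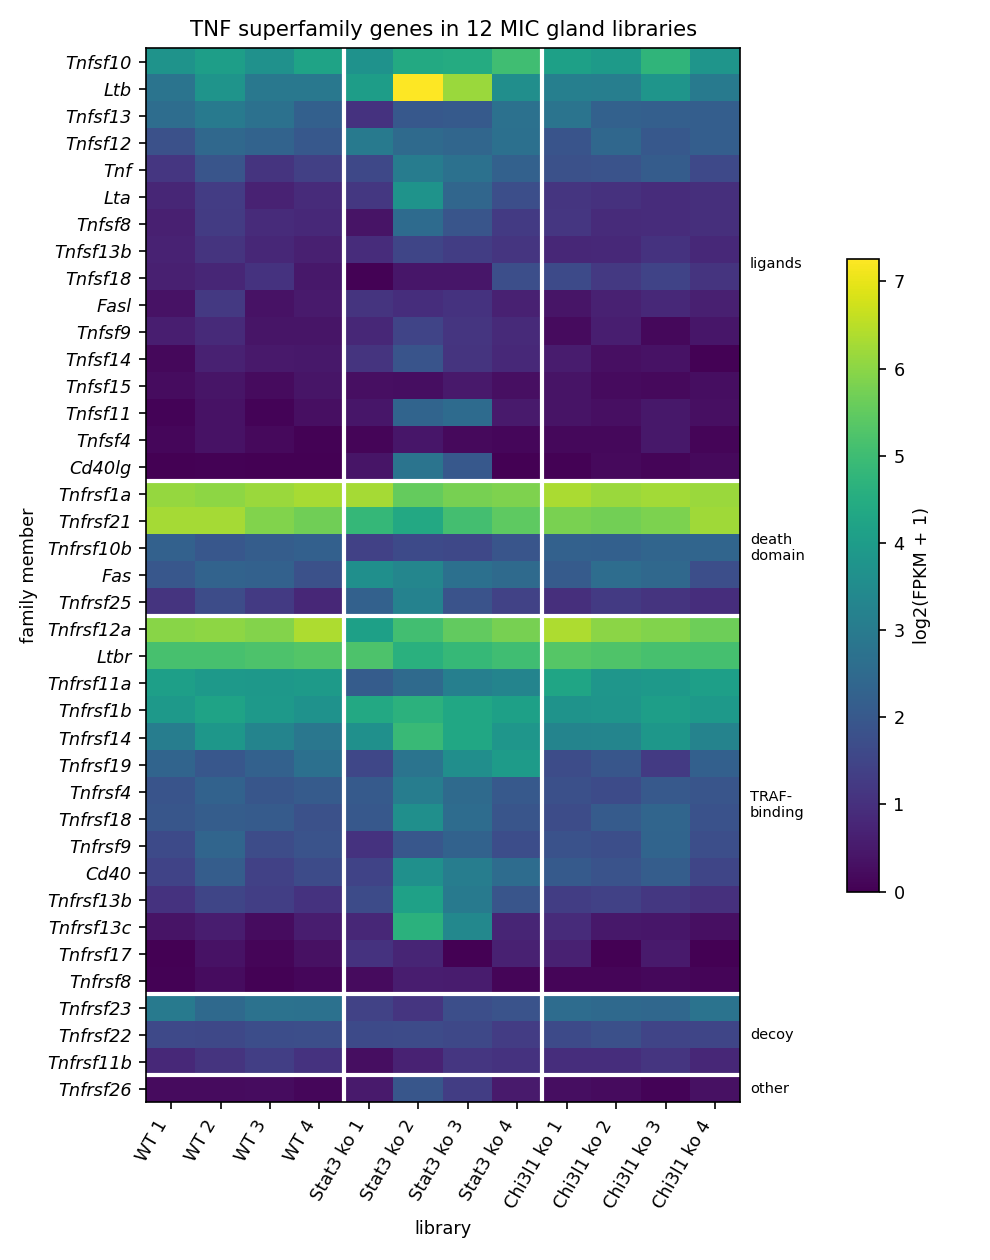
Level of each of the 39 members (rows, grouped by role) in each of the 12 libraries (columns) as log2(FPKM + 1), shown by colour. Receptors hold the brightest rows in WT, and the brightest single cell is Ltb in Stat3 ko 2.

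The question of the first comparison was how the family differs in glands labelled Stat3 ko. STAT3 is a cytokine-activated transcription factor. Of the 39 members, 28 reached at least 1 FPKM in at least 4 of 12 libraries and were tested. The other 11 comprised 7 ligands and 4 receptors, and are described by their counts further on. The test was limma on log2(FPKM + 1), with Benjamini-Hochberg adjustment over all 13643 tested genes and a call at an adjusted p under 0.05. Differences on this scale understate the change of low genes.

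Against WT, 4 receptors were lower in Stat3 ko, and 1 receptor and 1 ligand were higher. The lower members were the decoy Tnfrsf23, the TRAF-binding receptor RANK, and the death domain receptors DR6 and DR5. The higher members were the death receptor Fas and the ligand Tnf. These are 6 of 28 tested members, or 21.4%, beside 14.0% of all tested genes, of which 5.61% of genes were higher and 8.39% lower. An unadjusted p under 0.05 was found for 17 of the 28, and for 34.1% of all tested genes. The median log2 difference over the 28 was 0.43, against -0.02 over all tested genes. Ligands had a median of 0.50, TRAF-binding receptors 0.45, death domain receptors -0.29 and decoys -0.29. The ligands Lta, Tnfsf8 and Tnfsf13b reached 1 FPKM in 3, 2 and 2 libraries outside Stat3 ko. They therefore passed the filter only through Stat3 ko libraries, the group where their mean is highest. As they count among the 28 and among the ligands, the medians and the count of 17 are not free of the filter.

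Tnfrsf23 (chr7:143665809-143685872, minus strand, GRCm38) encodes a mouse decoy receptor for TRAIL. Its levels were 6.82, 4.60, 5.72 and 5.53 FPKM in WT 1 to 4, 1.71, 1.19, 2.38 and 2.59 in Stat3 ko 1 to 4, and 4.94, 4.56, 4.38 and 5.84 in Chi3l1 ko 1 to 4. Every Stat3 ko library lay below every other library. The Stat3 ko mean was 34.7% of the WT mean, with a log2 difference of -1.18 ± 0.16 (SE) and a limma adjusted p of 0.0017.

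RANK (Tnfrsf11a, chr1:105780718-105847981, plus strand) fell in the same way. The 4 WT libraries held 16.1, 13.9, 13.5 and 14.4 FPKM, the Stat3 ko libraries 3.34, 4.73, 7.72 and 8.63 FPKM, and the Chi3l1 ko libraries 18.2, 13.1, 14.2 and 16.3 FPKM. The groups did not overlap, and Stat3 ko 1 and 2 were the lowest. The Stat3 ko mean was 42.1% of WT, with a log2 difference of -1.19 ± 0.22 and a limma adjusted p of 0.0080.

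DR6 (Tnfrsf21, chr17:43016555-43089189, plus strand) was among the most abundant members in WT. It measured 77.2, 77.2, 57.9 and 49.98 FPKM in WT, 27.6, 19.8, 33.1 and 43.1 FPKM in Stat3 ko, and 54.8, 51.4, 55.6 and 73.8 FPKM in Chi3l1 ko. The highest Stat3 ko library stayed under the lowest WT library. The log2 difference was -1.09 ± 0.23 (limma adjusted p = 0.0133), and the call ended without WT 1 (0.0502).

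DR5 (Tnfrsf10b, chr14:69767472-69784411, plus strand), a receptor through which TRAIL triggers apoptosis, had WT levels of 3.73, 2.95, 3.41 and 3.65 FPKM. Its Stat3 ko levels were 1.63, 2.10, 1.97 and 2.79 FPKM and its Chi3l1 ko levels 3.81, 3.64, 4.19 and 4.16 FPKM. The shift was small beside the other 3 receptors but the groups did not overlap, with a log2 difference of -0.52 ± 0.11 (limma adjusted p = 0.0169). The call ended without WT 1 (0.0620) or without WT 4 (0.0521).

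Fas (chr19:34290659-34327770, plus strand), the receptor of Fas ligand, was higher. It measured 2.95, 3.95, 3.80 and 2.50 FPKM in WT, 11.3, 8.98, 5.40 and 4.73 FPKM in Stat3 ko, and 3.26, 5.02, 4.45 and 2.33 FPKM in Chi3l1 ko. All Stat3 ko libraries exceeded all WT libraries, and the highest was Stat3 ko 1, which also had the highest adipocyte marker level. Whether that marker level has a part in the Fas value was not tested. The log2 difference was 0.94 ± 0.26 (limma adjusted p = 0.0359). The call ended when any 1 of the 4 WT libraries was left out (0.0525 to 0.0997), and without Stat3 ko 1 (0.0650) or Stat3 ko 2 (0.0883).

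Tnf (chr17:35199381-35202007, minus strand), the founding cytokine of the family, measured 1.20, 2.76, 1.12 and 1.59 FPKM in WT, 1.98, 7.30, 5.49 and 3.81 FPKM in Stat3 ko, and 2.48, 2.65, 3.30 and 2.02 FPKM in Chi3l1 ko. Stat3 ko 1 lay under WT 2, so the groups overlapped. The log2 difference was 1.02 ± 0.29 (limma adjusted p = 0.0394). The call on Tnf was lost when any 1 of 5 libraries was left out: Stat3 ko 2 (0.0939), Stat3 ko 3 (0.0647), WT 1 (0.113), WT 3 (0.0957) or WT 4 (0.0906).

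**Figure D2:**
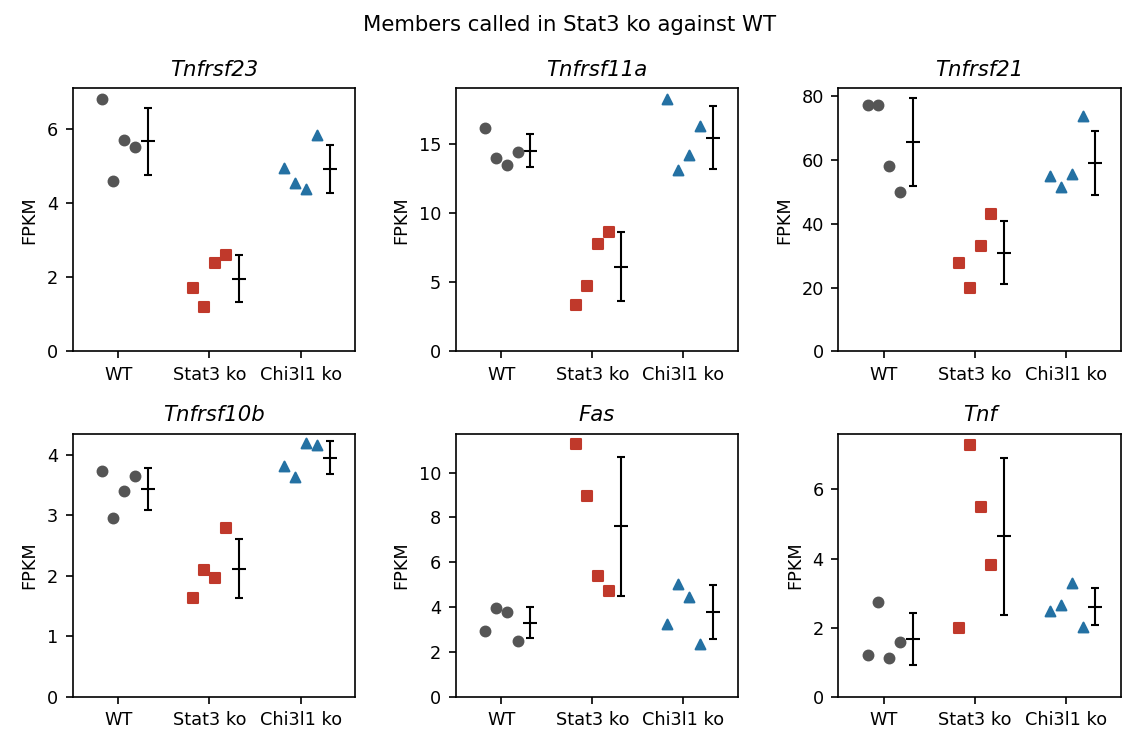
FPKM of the 6 members called in Stat3 ko against WT, with 1 point per library (circles WT, squares Stat3 ko, triangles Chi3l1 ko) and, beside the points, the group mean with 1 SD. Stat3 ko lies below WT without overlap for Tnfrsf23, Tnfrsf11a, Tnfrsf21 and Tnfrsf10b and above it for Fas, whereas the groups overlap for Tnf. The share of all tested genes without overlap was not counted.

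Upstream sequences of called members are shown because the targeted gene encodes a DNA-binding factor, and because NF-kB and AP-1 are factors through which receptors of the family act. Of the 39 members, 30 had a RefSeq start in the GRCm38.p6 table, giving 34 windows of 250 bases before a start. The reference is C57BL/6J whereas the mice were FVB/N. Matches to TTCNNNGAA (STAT), to TGACTCA (AP-1) and to the degenerate NF-kB consensus, on either strand, are in capitals. Shown are the members called by limma in Stat3 ko against WT whose window lay wholly outside the annotated gene, and Lta, the neighbour of Tnf, which was not called. RANK was called but is not shown, as 5 bases of its window lie inside the gene, and that window held no match. DR5 was called but had no window.
Fas, chr19:34290409-34290658, plus strand: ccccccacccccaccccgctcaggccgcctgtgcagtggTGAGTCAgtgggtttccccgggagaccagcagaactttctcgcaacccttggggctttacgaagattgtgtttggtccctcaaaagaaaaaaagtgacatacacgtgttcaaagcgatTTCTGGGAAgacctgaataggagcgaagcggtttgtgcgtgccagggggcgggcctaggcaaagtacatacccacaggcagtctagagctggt
Lta, chr17:35205352-35205601, minus strand: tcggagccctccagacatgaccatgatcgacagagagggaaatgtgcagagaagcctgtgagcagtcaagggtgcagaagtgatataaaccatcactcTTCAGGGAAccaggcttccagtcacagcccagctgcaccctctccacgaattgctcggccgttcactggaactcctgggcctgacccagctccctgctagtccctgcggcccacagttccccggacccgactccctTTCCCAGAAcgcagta
Tnf, chr17:35202008-35202257, minus strand: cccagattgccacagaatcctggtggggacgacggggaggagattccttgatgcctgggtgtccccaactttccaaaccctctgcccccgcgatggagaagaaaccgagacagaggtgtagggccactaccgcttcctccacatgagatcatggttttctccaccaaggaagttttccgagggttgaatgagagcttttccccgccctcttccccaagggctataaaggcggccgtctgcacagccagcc
Tnfrsf21, chr17:43016305-43016554, plus strand: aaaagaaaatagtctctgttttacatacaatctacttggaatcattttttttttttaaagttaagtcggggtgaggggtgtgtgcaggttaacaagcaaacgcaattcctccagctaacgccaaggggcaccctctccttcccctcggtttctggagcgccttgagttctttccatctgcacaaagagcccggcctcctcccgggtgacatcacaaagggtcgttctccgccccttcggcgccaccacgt
Tnfrsf23, chr7:143685876-143686125, minus strand: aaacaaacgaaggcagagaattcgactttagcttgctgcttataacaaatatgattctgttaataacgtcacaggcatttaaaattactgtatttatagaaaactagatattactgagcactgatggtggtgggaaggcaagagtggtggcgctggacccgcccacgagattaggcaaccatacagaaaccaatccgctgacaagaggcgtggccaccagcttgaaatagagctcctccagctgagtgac

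The Fas window held an AP-1 match that begins 211 bases before the start and a STAT match that begins 93 bases before it. The Lta window held STAT matches at 152 and 16 bases. No match to these letters was present in the windows of Tnf, Tnfrsf21 and Tnfrsf23. Over the whole family, the STAT letters occurred in 8 of 34 windows (23.5%) against 7.02% of 32851 windows in the table, the AP-1 letters in 6 (17.6%) against 4.46%, and the NF-kB consensus in 3 (8.82%) against 3.90%. The windows with STAT letters belonged to Fas, Lta, Ltb, Tnfrsf18, Tnfrsf1a, Tnfrsf1b, Tnfrsf25 and Tnfrsf9. Those of Tnfrsf1a, Tnfrsf25 and Tnfrsf9 lie wholly inside the annotated gene. Those of Tnfrsf18 and Ltb lie partly inside it, by 158 and 68 bases. Windows inside a gene were kept in these counts. Of the members with STAT letters, Fas alone was called in Stat3 ko against WT by limma. The edgeR test, which called 18.0% of all genes, called Fas, Lta, Ltb, Tnfrsf1b and Tnfrsf25 higher, and none of them without Stat3 ko 2 and 3.

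Several ligands and receptors of lymphoid cells were higher on average in Stat3 ko without passing the test. Ltb was the most extreme. It measured 5.87, 12.6, 6.43 and 6.52 FPKM in WT, but 15.6, 152, 71.4 and 10.96 FPKM in Stat3 ko. The group means were 7.84 ± 3.16 and 62.5 ± 65.6 FPKM, and the log2 difference of 2.18 ± 0.67 had a limma adjusted p of 0.0526. Stat3 ko 2 and 3 were the highest, and Stat3 ko 4 lay under WT 2.

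Lta, which forms soluble lymphotoxin, was at 0.728, 1.45, 0.609 and 0.869 FPKM in WT and at 1.26, 12.4, 4.27 and 2.33 FPKM in Stat3 ko (log2 difference 1.34 ± 0.42, limma adjusted p = 0.0558). Tnfrsf13b (TACI), a receptor of BAFF and APRIL on B cells, was at 1.11, 1.86, 1.52 and 1.09 FPKM in WT and at 2.16, 16.9, 6.82 and 2.76 FPKM in Stat3 ko (1.43 ± 0.44, 0.0507). Both genes were highest in Stat3 ko 2 and next highest in Stat3 ko 3, and for Tnfrsf13b the groups did not overlap.

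Other members just outside the threshold were Tnfrsf1b (0.45 ± 0.14, limma adjusted p = 0.0515), Tnfrsf14 (0.90 ± 0.29, 0.0574), Tnfrsf25 (DR3), a death domain receptor of T cells (0.99 ± 0.32, 0.0620), and, in the other direction, Tnfrsf12a (-0.95 ± 0.30, 0.0583). Tnfrsf12a measured 62.0, 64.0, 59.2 and 80.8 FPKM in WT and 16.5, 32.2, 45.0 and 54.0 FPKM in Stat3 ko, with no overlap and its lowest value in Stat3 ko 1. Cd40, the receptor through which T cells license B cells and dendritic cells, was at 1.77, 3.40, 1.64 and 2.15 FPKM in WT and at 1.73, 11.5, 7.38 and 4.97 FPKM in Stat3 ko (1.02 ± 0.38, 0.0888).

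Among the abundant receptors, Tnfrsf1a (-0.29 ± 0.14, limma adjusted p = 0.155) and Ltbr (-0.27 ± 0.12, 0.152) did not pass. TRAIL, the ligand of DR5 and of the decoy Tnfrsf23, was at 12.2, 15.6, 11.6 and 17.4 FPKM in WT and at 12.04, 20.2, 20.9 and 31.7 FPKM in Stat3 ko (0.49 ± 0.28, 0.229). The groups overlapped for this ligand, while its receptors DR5 and Tnfrsf23 were called lower. Tnfrsf22, the other TRAIL decoy, was flat at 2.15 ± 0.167 FPKM in WT and 1.93 ± 0.330 FPKM in Stat3 ko (-0.11 ± 0.11, 0.495). Osteoprotegerin (Tnfrsf11b), the soluble decoy for RANKL, was at 1.13 ± 0.319 and 0.782 ± 0.461 FPKM (-0.29 ± 0.20, 0.320).

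A further 8 tested members were not called by limma in any comparison. Tnfrsf19 (TROY), a receptor known from the hair follicle and the nervous system, was at 4.08, 2.89, 3.75 and 5.35 FPKM in WT and at 1.91, 5.97, 10.99 and 14.7 FPKM in Stat3 ko (0.67 ± 0.44, limma adjusted p = 0.300), so that Stat3 ko held both the lowest and the highest value of the pair of groups. Tnfrsf4 (OX40), a costimulatory receptor of T cells, was at 2.71, 3.90, 2.86 and 3.25 FPKM in WT and at 3.16, 7.42, 4.64 and 3.06 FPKM in Stat3 ko (0.36 ± 0.21, 0.245). GITR (Tnfrsf18) averaged 5.45 ± 3.92 FPKM in Stat3 ko against 2.97 ± 0.406 FPKM in WT (0.53 ± 0.32, 0.250), and Tnfrsf9 (4-1BB) 2.54 ± 1.15 against 2.76 ± 0.932 FPKM (-0.12 ± 0.25, 0.764). OX40 and GITR were highest in Stat3 ko 2.

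Among the ligands, Tnfsf12 (TWEAK), whose receptor Tnfrsf12a was lower on average, was at 5.31 ± 1.23 FPKM in Stat3 ko and 3.48 ± 0.906 FPKM in WT (0.50 ± 0.18, limma adjusted p = 0.0814). Tnfsf8, the ligand of CD30, was at 0.559, 1.37, 0.858 and 0.796 FPKM in WT and at 0.299, 4.86, 2.75 and 1.36 FPKM in Stat3 ko (0.61 ± 0.37, 0.256), with Stat3 ko 2 and 3 the highest. BAFF (Tnfsf13b) averaged 1.36 ± 0.430 FPKM in Stat3 ko against 0.768 ± 0.261 in WT (0.41 ± 0.16, 0.0971), and APRIL (Tnfsf13) 3.19 ± 1.80 against 5.33 ± 1.33 FPKM (-0.68 ± 0.30, 0.133). For all 8 members the Stat3 ko and WT libraries overlapped.

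Of the 11 members under the expression filter, Tnfrsf13c, RANKL, Tnfrsf26 and Cd40lg had the most counts in Stat3 ko, and each was highest in Stat3 ko 2 or 3. Tnfrsf13c, the BAFF receptor of mature B cells, had 11, 23, 7 and 19 counts in WT and 26, 880, 404 and 26 counts in Stat3 ko. RANKL had 2, 14, 2 and 10 counts in WT and 13, 163, 225 and 19 counts in Stat3 ko. Cd40lg had 7, 133, 78 and 0 counts in Stat3 ko, against 1 count in all over WT and 10 over Chi3l1 ko.

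Tnfrsf26 was at 9, 12, 11 and 6 counts in WT and at 23, 164, 100 and 27 counts in Stat3 ko. In these 4 genes the libraries with the highest counts were those with the highest B cell and lymph node stroma markers. Tnfsf14 (LIGHT), a ligand of Ltbr and Tnfrsf14, was less concentrated, with 4, 24, 14 and 14 counts in WT and 35, 90, 44 and 28 counts in Stat3 ko. Tnfrsf17 (BCMA), the plasma cell receptor of the family, had 15, 10, 0 and 9 counts in Stat3 ko and so did not follow the B cell markers. Fasl, Tnfsf9, Tnfsf15, Tnfsf4 and Tnfrsf8 averaged at most 1.14 FPKM in every group.

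The edgeR quasi-likelihood test on whole counts, recovered from FPKM and gene length, kept 35 members and called the same 4 lower members in Stat3 ko against WT. It called 12 higher members, namely Cd40, Fas, Lta, Ltb, Tnf, Tnfrsf13b, Tnfrsf13c, Tnfrsf14, Tnfrsf1b, Tnfrsf25, Tnfrsf26 and Tnfsf11. In that test 18.0% of all genes were called. Without Stat3 ko 2 and 3, edgeR called 0 members higher and RANK, DR6 and Tnfrsf23 lower, beside 10.9% of all genes. DESeq2, which tested all 39 members on all libraries, called 15 higher and 5 lower, beside 21.7% of all genes. The authors' deposited table of this comparison lists 25 members, with 13 higher and 4 lower at an adjusted p under 0.05.

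Markers of many other cell types moved with these differences, and their part in the members' values was not tested apart from the fits that follow. The B cell markers summed to between 9.97 and 24.2 FPKM in WT and between 35.3 and 976 FPKM in Stat3 ko. The range for Chi3l1 ko was 12.1 to 32.1 FPKM. Of the 14 markers 6 were tested, and 3 were higher against WT with none lower (Ighm, Cd22 and Fcrla). No B cell marker was at 0 in a whole group. Luminal epithelial markers summed to between 2056 and 3062 FPKM in WT and between 1110 and 2542 FPKM in Stat3 ko, and 3 of 10 tested were lower with none higher (Elf5, Muc1 and Elf3). T cell markers summed to between 23.3 and 47.2 FPKM in WT and between 38.4 and 425 FPKM in Stat3 ko, with 3 of 14 tested higher and none lower (Cd8b1, Cd2 and Cd8a). Adipocyte markers summed to between 118 and 498 FPKM in WT and between 891 and 8364 FPKM in Stat3 ko, with 5 of 9 higher and none lower, led by Cfd, Plin4, Fabp4 and Plin1. In bulk tissue, fewer cells of a type and less RNA per cell cannot be told apart.

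Markers of myeloid, cytotoxic and stromal cells were also higher, with none lower in these lists. Dendritic cell markers summed to between 24.1 and 37.5 FPKM in WT and between 46.5 and 102 FPKM in Stat3 ko, and 5 of 7 tested were higher, led by Siglech, Fscn1, Flt3 and Wdfy4. NK and cytotoxic cell markers summed to between 17.4 and 41.5 FPKM in WT and between 42.9 and 141 FPKM in Stat3 ko, with 4 of 8 higher (Ccl5, Klrk1, Ncr1 and Prf1). For macrophage markers the sums were 681 to 1389 FPKM in WT and 1369 to 2221 FPKM in Stat3 ko, with 4 of 10 higher (Lyz2, Cd68, Csf1r and Mrc1). Of 8 fibroblast markers 2 were higher (Pdgfrb and Pdgfra), and of 7 endothelial markers 1 (Pecam1). The dendritic cell and the NK and cytotoxic sums did not overlap between the groups. The remaining lists with a call went in mixed directions. Of 5 plasma cell markers 1 was lower (Xbp1) and none higher, but 3 had a positive log2 difference and the median was 0.04. Of 4 tested neutrophil markers 1 was lower (S100a8) and none higher, 2 were positive and the median was -0.30. The share of all tested genes called was 14.0%, as above.

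Without Stat3 ko 2 and 3, Tnfrsf23 (log2 difference -1.09, limma adjusted p = 0.0096) and RANK (-1.26, 0.0314) were still called lower against WT, DR6 (-0.88, 0.0556) and DR5 (-0.49, 0.0660) just missed, and no member was called higher. Fas was no longer called at 0.98 (0.0789), a value that rests on Stat3 ko 4 and on Stat3 ko 1, its highest library. Tnf was at 0.54 (0.173), Ltb at 0.73 (0.127) and Cd40 at 0.35 (0.450). In that fit 7.18% of all genes were called. With the B cell marker level as a covariate, Tnfrsf23 alone was called (-0.95, 0.0425), beside 1.80% of all genes, and Ltb was at 0.26 and Tnf at 0.42. With the luminal marker level as a covariate, no member was called, beside 0.909% of all genes: Tnfrsf23 was at -0.73 (0.0633), RANK at -0.54 (0.357) and Fas at 0.17 (0.965).

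**Figure D3:**
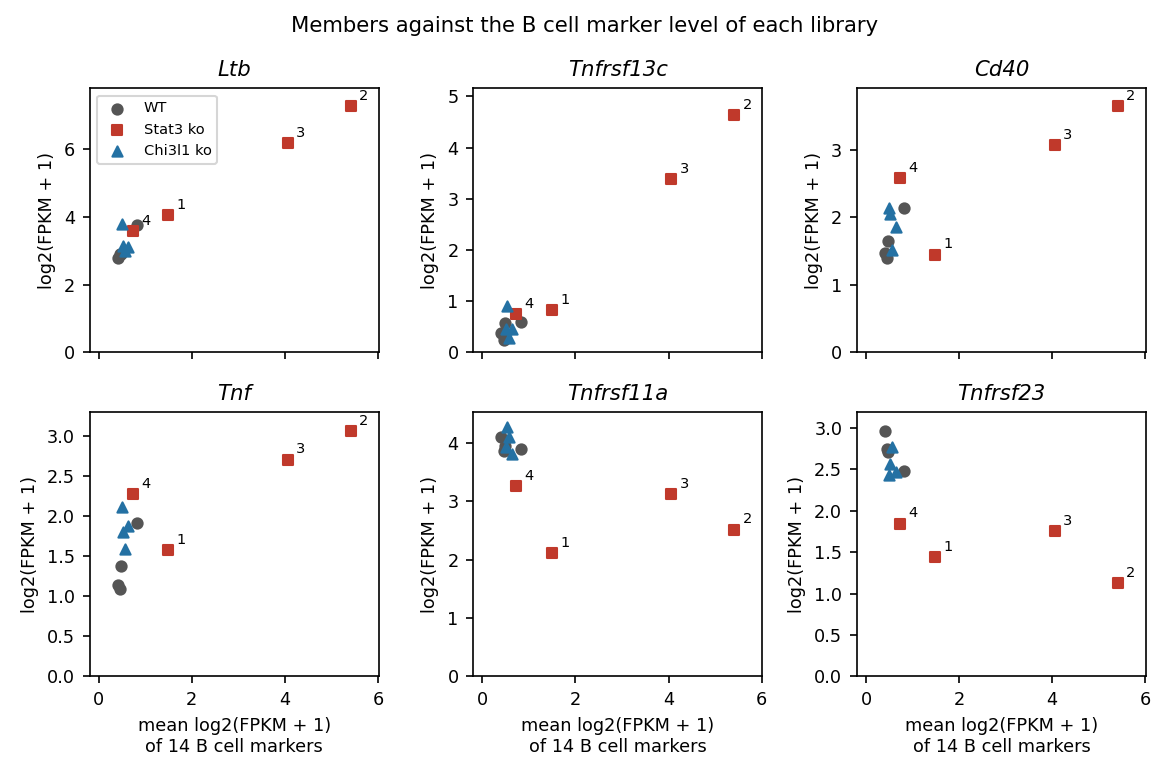
Level of 6 members as log2(FPKM + 1) against the mean log2(FPKM + 1) of 14 B cell markers in the same library, with circles for WT, squares for Stat3 ko (numbered by library) and triangles for Chi3l1 ko. Stat3 ko 2 and 3 lie far to the right, where Ltb and Tnfrsf13c are highest, while Tnfrsf11a and Tnfrsf23 are low in all 4 Stat3 ko libraries.

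Some members are neighbours in the genome. Tnfrsf26, Tnfrsf22 and Tnfrsf23 lie in this order on the minus strand of chromosome 7, separated by 6.08 and 16.1 kb with no coding gene between them. The antisense gene E230032D23Rik, which averaged 0.0663 FPKM over all libraries, overlaps all 3. By edgeR, which tested all 3 in Stat3 ko against WT, Tnfrsf23 was called lower, Tnfrsf22 was not called, and Tnfrsf26 was called higher (log2 difference 3.08, adjusted p = 0.0154). The Tnfrsf26 value rested on Stat3 ko 2 and 3, and without them it was 1.53 by edgeR and not called (0.0836). Ltb, Tnf and Lta lie within chromosome 17 at gaps of 3.06 and 1.16 kb, and all 3 were highest in Stat3 ko 2. Tnfsf12 and Tnfsf13 overlap the readthrough gene Tnfsfm13 and the antisense gene Tnfsf13os, and since the strand setting of the counting is not given in the sources used here, their values are uncertain. The same limit applies to Tnfrsf9, which overlaps Camta1, and to Tnfrsf18, which overlaps the antisense gene Gm16008.

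The signalling machinery around the family was read from 4 lists, beside the 14.0% of all tested genes called in Stat3 ko against WT. Of 24 adaptors and kinases, 3 were higher in Stat3 ko than in WT and none lower, a share near that of all genes, with a median log2 difference of -0.0014 beside -0.02 over all genes. The 3 were Traf1 (1.08 ± 0.30, limma adjusted p = 0.0387), an NF-kB-induced adaptor, Traf5 (1.01 ± 0.28, 0.0388), an adaptor of CD40 and other lymphocyte receptors, and Ripk3 (0.75 ± 0.21, 0.0403), the kinase of necroptosis. Of 15 NF-kB subunits and regulators 1 was higher, Tnip1 (0.73 ± 0.17, 0.0205), a brake on NF-kB, and 1 lower, the nuclear cofactor Bcl3 (-0.90 ± 0.22, 0.0230), again near the share of all genes, with a median of 0.14.

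Among 15 tested of 19 listed NF-kB target genes, Plau, which encodes urokinase, was higher (0.58 ± 0.15, limma adjusted p = 0.0292). Lower were Lcn2, the iron-siderophore binding protein lipocalin 2 (-3.12 ± 0.31, 0.00019), and the neutrophil chemokine Cxcl1 (-1.24 ± 0.14, 0.00032). The median of the list was 0.33. Of 4 genes for shedding of TNF and its receptors, 2 were lower, the protease Adam17 (-0.41 ± 0.10, 0.0269) and its trafficking partner Rhbdf2 (-0.58 ± 0.16, 0.0342), with a median of -0.38. Of 7 family genes that the name rule leaves out 3 were tested, and Ngfr, the low-affinity neurotrophin receptor, was higher (0.95 ± 0.14, 0.0023). Against Chi3l1 ko the counts of higher and lower genes in Stat3 ko were 3 and 0 for the adaptors and kinases, 1 and 1 for the NF-kB subunits and regulators, 0 and 2 for the NF-kB targets and 0 and 1 for the shedding genes, beside 13.2% of all tested genes called.

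The second comparison asked whether the loss of Chi3l1, a secreted chitinase-like glycoprotein, altered the family. No member was called in Chi3l1 ko against WT by limma (0 of 28). An unadjusted limma p under 0.05 was found for 0 of the 28 and for 1.63% of all tested genes, so the 0 is near that share. Over all genes 1 of 13643 was called, 0.00733%, and that gene was Chil1 itself. edgeR called 0 of 35 members, beside 0.00608% of all genes, and DESeq2 0 of 39, beside 0.0357%. The SE of the log2 differences, which the fit pools over all 3 groups, ran from 0.11 for Tnfrsf22 to 0.67 for Ltb. For Ltb the coefficient of variation was 105% in Stat3 ko, against 40.3% in WT and 30.5% in Chi3l1 ko. Its SE thus holds spread from a group outside this comparison. Small shifts in members with a large SE could not have been resolved by this fit. The median log2 difference over the 28 was 0.03, against 0.0030 over all tested genes. In the lists of adaptors, NF-kB regulators, NF-kB targets and shedding genes, 0 genes were called.

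The largest difference was in Tnfsf18 (GITR ligand), which costimulates T cells. It measured 0.542, 0.714, 1.10 and 0.379 FPKM in WT and 2.08, 1.31, 1.75 and 1.11 FPKM in Chi3l1 ko, so that all 4 Chi3l1 ko libraries lay above WT, the closest by a small margin. Tnfsf18 reached 1 FPKM in 6 libraries, among them all 4 of Chi3l1 ko. It therefore passed the filter only through the group where its mean is highest, and its place among the tested members and the lack of overlap are not free of the filter. For Tnfsf18, the log2 difference and its p-values follow. The log2 difference was 0.61 ± 0.32 (unadjusted p = 0.0795, limma adjusted p = 0.9998). The 2 groups rest on 111 and 280 counts. The authors' deposited table lists Tnfsf18 at a log2 fold change of 1.20 with an adjusted p of 0.289, and also Tnfrsf19 and Tnf. None had an authors' adjusted p under 0.05, while their unadjusted p-values were 0.00127 for Tnfsf18, 0.0178 for Tnfrsf19 and 0.0462 for Tnf. In Stat3 ko the same ligand had 1, 13, 16 and 92 counts, or 0.0290, 0.348, 0.369 and 2.36 FPKM. Its receptor Tnfrsf18 (GITR) was at 2.97 ± 0.406 FPKM in WT and 3.04 ± 0.847 FPKM in Chi3l1 ko.

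The third comparison set the knockouts against each other. Because both share the WT controls in the other comparisons, this contrast is the direct test of whether they differ. Chil1 was also low in Stat3 ko, as given above, so the contrast does not set a loss of Stat3 alone against a loss of Chi3l1. Against Chi3l1 ko, 4 members were lower in Stat3 ko and 3 higher, 7 of 28 or 25.0%, beside the same 13.2% of all tested genes, with 5.19% higher and 8.0% lower. The 4 lower members were those called against WT: Tnfrsf23 (log2 difference -1.02 ± 0.16, limma adjusted p = 0.0037), DR5 (-0.68 ± 0.11, 0.0049), RANK (-1.27 ± 0.22, 0.0057) and DR6 (-0.95 ± 0.23, 0.0221). In each, all 4 Stat3 ko libraries lay below all 4 Chi3l1 ko libraries. The share of all tested genes whose groups do not overlap was not counted, here or against WT. The lack of overlap is therefore no sign of a trait of these members. edgeR called 11 members higher and the same 4 lower, beside 15.1% of all genes, and DESeq2 16 and 4, beside 20.0%. Without Stat3 ko 2 and 3, edgeR called 0 higher and 3 lower (DR5, RANK and Tnfrsf23), beside 9.39% of all genes. The DR6 call by limma ended without Chi3l1 ko 1 (0.0580), 3 (0.0535) or 4 (0.0708).

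The 3 higher members all missed the threshold against WT. Tnfrsf1b measured 19.8, 24.6, 19.2 and 16.5 FPKM in Stat3 ko against 12.3, 12.8, 15.9 and 14.3 FPKM in Chi3l1 ko (0.49 ± 0.14, limma adjusted p = 0.0377). DR3 (Tnfrsf25) measured 3.79, 8.34, 2.61 and 1.70 FPKM against 0.954, 1.33, 1.12 and 0.935 FPKM (1.14 ± 0.32, 0.0422). Tnfrsf13b was at 1.47, 1.63, 1.27 and 1.01 FPKM in Chi3l1 ko (1.45 ± 0.44, 0.0495). In all 3 the groups did not overlap, again without a counted share over all genes, and Stat3 ko 2 was highest. None of the 3 was called without Stat3 ko 2 and 3 (Tnfrsf1b 0.135, DR3 0.0964, Tnfrsf13b 0.0756), a fit that called 7.26% of all genes. Fas (0.82 ± 0.26, 0.0596) and Tnf (0.56 ± 0.29, 0.209) were not called, and for both the Stat3 ko and Chi3l1 ko libraries overlapped.

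**Figure D4:**
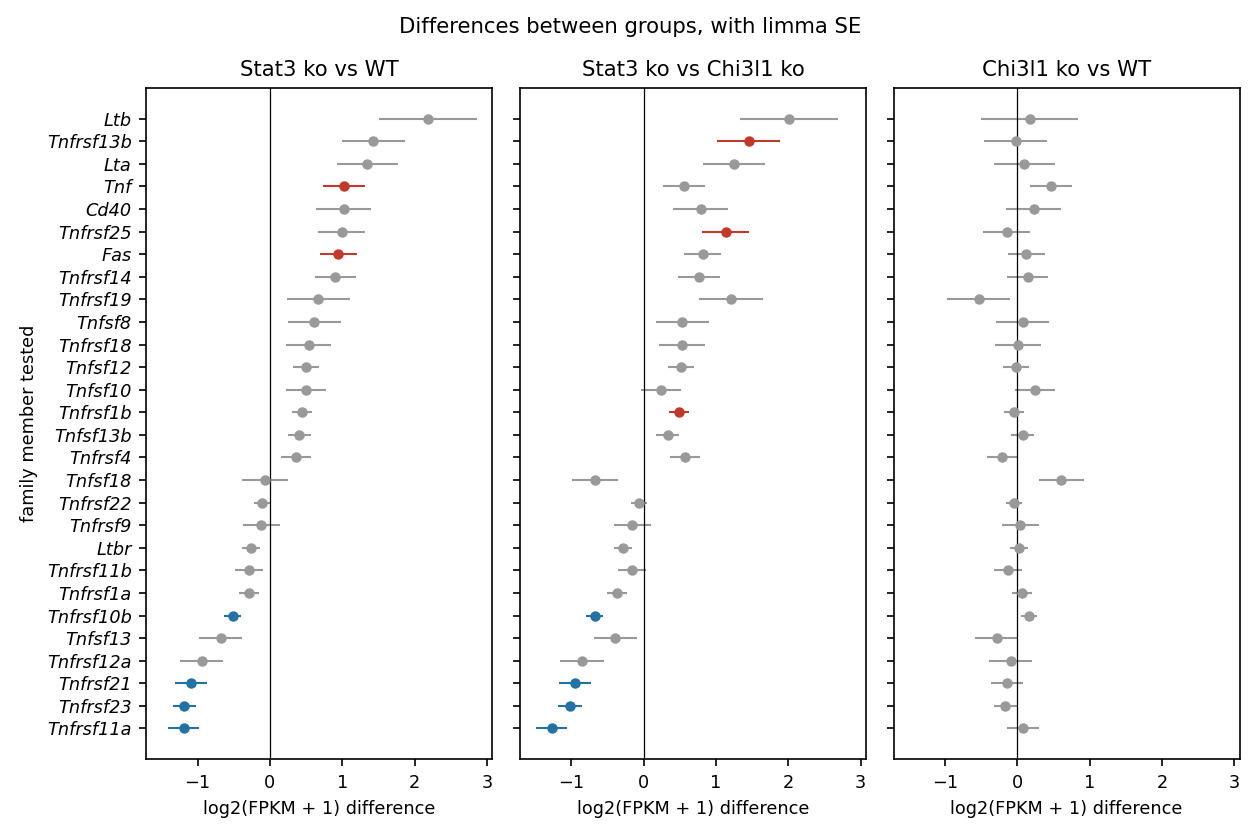
Difference in log2(FPKM + 1) with its limma SE for each of the 28 tested members in the 3 comparisons, in red where called higher and in blue where called lower. The 4 blue members are the same in both comparisons that involve Stat3 ko, and no member is coloured in Chi3l1 ko against WT.

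Spread between libraries differed by group. The median coefficient of variation over the 28 tested members was 25.2% for WT, 44.5% for Stat3 ko and 19.5% for Chi3l1 ko. Stat3 ko 2 was the highest Stat3 ko library for 20 of the 39 members, and Stat3 ko 1 the lowest for 16 of the 28 tested. Within WT, WT 2 was the highest library for 26 of the 39 members, and it also had the highest WT level of B cell markers (0.82) and T cell markers (1.86 against 1.20 to 1.27). Without WT 2, limma called Tnf, Tnfrsf14 and Tnfrsf1b higher in Stat3 ko and the same 4 members lower, beside 9.36% of all genes. The mitochondrial share of counts was 1.002 to 1.51% in the WT libraries, 1.15 to 4.79% in those of Stat3 ko and 1.03 to 2.22% in those of Chi3l1 ko. Without the 3 libraries above 2%, which include Stat3 ko 1 and 2, only RANK and Tnfrsf23 remained called lower against WT, and Cd40, Lta, Tnf, Tnfrsf13b and Tnfrsf19 were called higher, beside 9.34% of all genes.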

How the data were processed

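RNA from hyperplastic mammary glands, called lesions in the sample titles, was sequenced in 12 libraries, 4 per group. Extraction was by RNeasy and the libraries were NEBNext Ultra II, per the labels' protocols. Trimmomatic, STAR, HTSeq, edgeR and limma, with GRCm38 and mm10, are named in the submitters' processing notes, while versions, settings and the strand setting are not given in the sources used here. The authors deposited FPKM for every gene and library in 1 table with gene length and position, per the file headers. Their tables of Stat3 ko and of Chi3l1 ko against WT hold deposited counts, log2 fold changes and p-values, and list only part of the genes.

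Every FPKM value times gene length and a total per library, found from the deposited counts, gave a whole count within 0.01 reads, and 0 of 55832 deposited counts differed from these. The totals behind FPKM ranged from 16670009 to 24863995 and are not the sums of counts: they were lower than the sum in Stat3 ko 1 and higher in every other library. Summed counts per library ranged from 16217143 to 22607123, so the members under the filter, with few reads each, are limited by counting error.

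FPKM values were tested as log2(FPKM + 1), pseudocount 1, with limma 3.58.1 in R 4.3.3 (trended empirical Bayes, 2-sided, 3 group means, all 12 libraries). Genes that reached 1 FPKM in 4 or more libraries were kept, and p-values were adjusted by Benjamini-Hochberg over all 13643 of them, with a call under 0.05. The steps were tested on simulated data. Alternatives were pseudocount 0.1, other filters, median-of-ratios scaling, only the compared groups, array weights, edgeR 4.0.16 and DESeq2 1.42.0 on recovered counts, leaving out libraries, and covariates. Promoter windows came from RefSeq on GRCm38.p6, and 30 of 39 members matched by symbol.

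All members are given a level, a count or a range. From each pathway or marker list, up to 4 genes called in Stat3 ko against WT with the lowest adjusted p are named. Members, lists and tests were chosen with earlier results of these data known. The alternatives without Stat3 ko 2 and 3 together (limma and edgeR), with the luminal covariate, and with a filter on the compared groups alone were chosen after seeing the data.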

Additional observations from a re-analysis of the deposited data

Results flagged for a closer look

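Over 84 groups of 4 libraries, 7 held a library whose gap to the nearest of the others exceeded Dixon's 95% critical value for 4 samples. Chance gives about 1 in 20 groups. Of the 7, 4 were the same library, Chi3l1 ko 3, which stood above the rest of its group for Tnfrsf14 at 13.5 FPKM, Ltb at 12.8 FPKM, Tnfrsf9 at 4.07 FPKM and Tnfsf13b at 1.07 FPKM. Tnfrsf9 (4-1BB) is a costimulatory receptor of activated T cells and Tnfsf13b (BAFF) a survival factor of B cells. The T cell marker level of Chi3l1 ko 3 was 1.70, the highest of its group (1.32 to 1.42 in the others), while its B cell marker level was 0.50, the lowest. Their part in these values was not tested.

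Ltb was also high in WT 2 at 12.6 FPKM, the WT library with the highest B cell and T cell marker levels. Tnfsf13 (APRIL) was high in Chi3l1 ko 1 at 5.87 FPKM. Tnfsf18 was high in Stat3 ko 4 at 2.36 FPKM, which rests on 92 counts against 1, 13 and 16 in the other Stat3 ko libraries.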

How the results depend on the processing

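No paired analysis was possible because the labels give no shared replicate numbers. Against WT, 2 members were higher and 4 lower in Stat3 ko. The higher count was 5 with pseudocount 0.1, 0 with no filter, 4 with median-of-ratios scaling, 0 with only the compared groups, 8 with array weights, 12 by edgeR, 15 by DESeq2, 5 without libraries over 2% mitochondrial counts, and 0 with the B cell covariate, with the luminal covariate or without Stat3 ko 2 and 3, by limma or edgeR. The lower count was 2 with only the compared groups, without libraries over 2% mitochondrial counts or by limma without Stat3 ko 2 and 3, 1 with the B cell covariate and 0 with the luminal covariate. It was 3 by edgeR without Stat3 ko 2 and 3, and 5 with array weights or by DESeq2. Leaving out 1 library gave 0 to 8 higher and 2 to 6 lower. These were 8 and 6 without Stat3 ko 1 or Stat3 ko 4, 0 and 4 without Stat3 ko 2 or WT 3, 1 and 5 without Stat3 ko 3, 0 and 2 without WT 1, and 0 and 3 without WT 4. Against Chi3l1 ko, 3 members were higher and 4 lower. The higher count was 1 with no filter, 2 with a mean of at least 1 FPKM, 0 with only the compared groups, 6 with array weights, 11 by edgeR and 16 by DESeq2. It was also 0 with the B cell covariate, the luminal covariate or without Stat3 ko 2 and 3, by limma or edgeR. The lower count was 3 with only the compared groups or without Stat3 ko 2 and 3, by limma or edgeR. It was 6 with array weights and 0 with either covariate. Leaving out 1 library gave 0 to 7 higher and 3 to 6 lower: 7 and 6 without Stat3 ko 1, 6 and 6 without Stat3 ko 4, 0 and 4 without Stat3 ko 2, 1 and 4 without Chi3l1 ko 2, and 0 and 3 without Chi3l1 ko 1, 3 or 4. Chi3l1 ko against WT gave 0 members in both directions under every alternative run. No called member changed sign. Tnfrsf23 kept its call against WT in 20 of 21 alternatives, Tnfrsf11a in 19, Tnfrsf21 in 15, Tnfrsf10b in 13, Tnf in 10 and Fas in 7. The share of all genes called against WT moved between limma fits as well: 14.0% in the main fit, 9.36% without WT 2 and 7.18% without Stat3 ko 2 and 3. For the other fits without 1 library, and those with another pseudocount, filter, scaling, weighting or only the compared groups, that share is not given. Their counts therefore do not tell a change in the family from one over all genes. The covariate fits have fewer degrees of freedom, but the log2 differences themselves moved as well. Both covariates also differ between the groups. The mean luminal level was 6.74 in WT and 5.93 in Stat3 ko, and the mean B cell level 0.54 and 2.92. In these fits the marker level and the genotype cannot be told apart, and the cause of lost calls was not tested. Members under the filter rest on few counts: Tnfsf4 had 20, 22 and 26 counts in all over the 4 libraries of WT, Stat3 ko and Chi3l1 ko.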
